A study of Mus musculus with 8 samples.

Results

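The 7 genes Hras1, Nras, Rras, Rras2, Mras, Araf and Braf encode Ras GTPases and Raf kinases. They were taken by symbol from the deposited count files, where all 7 of them were present among 23420 gene symbols (Hras is written Hras1), and all 7 passed the filter that left 13316 genes for testing. Other genes of these families were not analysed here. The RNA came from mouse embryonic fibroblasts of C57BL6/N background, all of which expressed the adenoviral oncoprotein E1A together with the activated Ras protein HRasV12. Of the 8 libraries, 4 were wild-type for Neat1 and 4 came from Neat1-/- cells, called Neat1 null below. Both groups therefore carried the same pair of oncogenes, and neither the embryo age, the way the oncogenes were introduced, nor the species of the HRasV12 sequence is given in the labels. The comparison asks how the transcriptome of transformed fibroblasts differs with and without the long noncoding RNA Neat1.

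Ras GTPases switch between a GDP-bound resting state and a GTP-bound active state at the inner face of the plasma membrane. Exchange factors load them with GTP, GTPase-activating proteins return them to rest, and lipid-processing enzymes give them the membrane anchor. Active Ras recruits Raf kinases, which phosphorylate the MEK kinases, and these in turn activate the ERK kinases. An exchange at codon 12 of Ras, as in HRasV12, blocks the return to the resting state. Together with E1A such a Ras transforms rodent fibroblasts in culture.

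The place of that exchange is shown here because it limits what the Hras1 counts can say. The first 60 coding bases of mouse Hras, read from the GENCODE M21 transcripts of GRCm38 in coding orientation, are given with codon 12 in capitals.
Hras: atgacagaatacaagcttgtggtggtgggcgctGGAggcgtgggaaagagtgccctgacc
The deposited values are sums over a whole gene, so a read of the introduced HRasV12 and a read of the cell's own Hras cannot be told apart in them. Reads of Hras and Nras are separated more easily. Their coding sequences of 567 bases each were 75.3% identical, and the longest run of bases that any of their transcripts shared was 23. Among the other Ras pairs the identity was between 60.1% and 67.2%. Araf and Braf were 65.3% identical over 1747 aligned bases, with a longest shared run of 26 bases. Transcripts of Hras, Rras, Rras2 and Mras held no stretch of 50 bases in common with another annotated gene. Such stretches made up 0.733% of those of Nras, 1.13% of those of Araf and 0.691% of those of Braf. The last ones lie where the Braf exons overlap Ndufb2 on the opposite strand over 146 bases.

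Gene counts summed to between 31651625 and 37069334 in wild-type libraries and to between 19651035 and 38950207 in Neat1 null libraries. Levels are given in CPM, which are counts relative to library size after scaling with the TMM factors of edgeR. Neat1 was at 138 to 1320 CPM in wild-type and at 6.12 to 11.3 CPM in Neat1 null libraries, which leaves 1.15% of the wild-type mean. By Xist and 4 Y-linked genes all wild-type libraries and Neat1 null library 3 were female, and Neat1 null libraries 1, 2 and 4 were male. The fibroblast markers Vim (1233 to 2184 CPM in wild-type, 1891 to 3263 in Neat1 null) and Fn1 (505 to 918 and 431 to 1389) were high, whereas Dcn and Lum stayed below 1 CPM in all 8 libraries and Col1a1 did not exceed 12.4 CPM. Of 10 fibroblast markers tested, Pdgfra fell (40.9 to 148 CPM in the wild-type group, 3.92 to 10.9 in the Neat1 null group) and S100a4 rose (2.07 to 2.53 and 2.72 to 29.0). Of the markers of other cell types, the macrophage gene Cd68 (8.88 to 102 and 3.68 to 18.3 CPM) and the neural gene Map2 (23.8 to 51.0 and 6.20 to 24.5) fell. The epithelial genes Krt18 (149 to 568 and 179 to 3144 CPM) and Epcam (26.9 to 57.1 and 34.0 to 64.6) and the neural gene Nes (156 to 320 and 65.3 to 556) did not pass the test. Ptprc and Myod1 had no count in any library, and 3 of 4 endothelial markers stayed below 1 CPM throughout. The part of these marker levels in the results was not tested. On the first principal component Neat1 null libraries 1 and 3 (103 and 91.1) lay apart from Neat1 null libraries 2 and 4 (16.9 and 28.4), and wild-type libraries 3 and 4 (-89.0 and -92.1) apart from wild-type libraries 1 and 2 (-17.2 and -41.3). Results are given without 1 library at a time where that ends a call, also without Neat1 null libraries 1 and 3 together.

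Hras1 was higher and Braf was lower in Neat1 null libraries, and the other 5 genes did not pass the test. Of the 7 genes 2 were called at an adjusted p under 0.05 (edgeR quasi-likelihood test), beside 17.7% of all genes tested, of which 9.97% rose and 7.72% fell. These 2 were also the genes whose groups did not overlap in CPM, beside 22.6% of all genes tested (11.7% higher and 11% lower). In RNA from bulk cells, fewer cells that express a gene and less RNA per cell cannot be told apart. For Hras1, reads of the introduced HRasV12 and of the cell's own Hras cannot be told apart either.

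**Figure D1:**
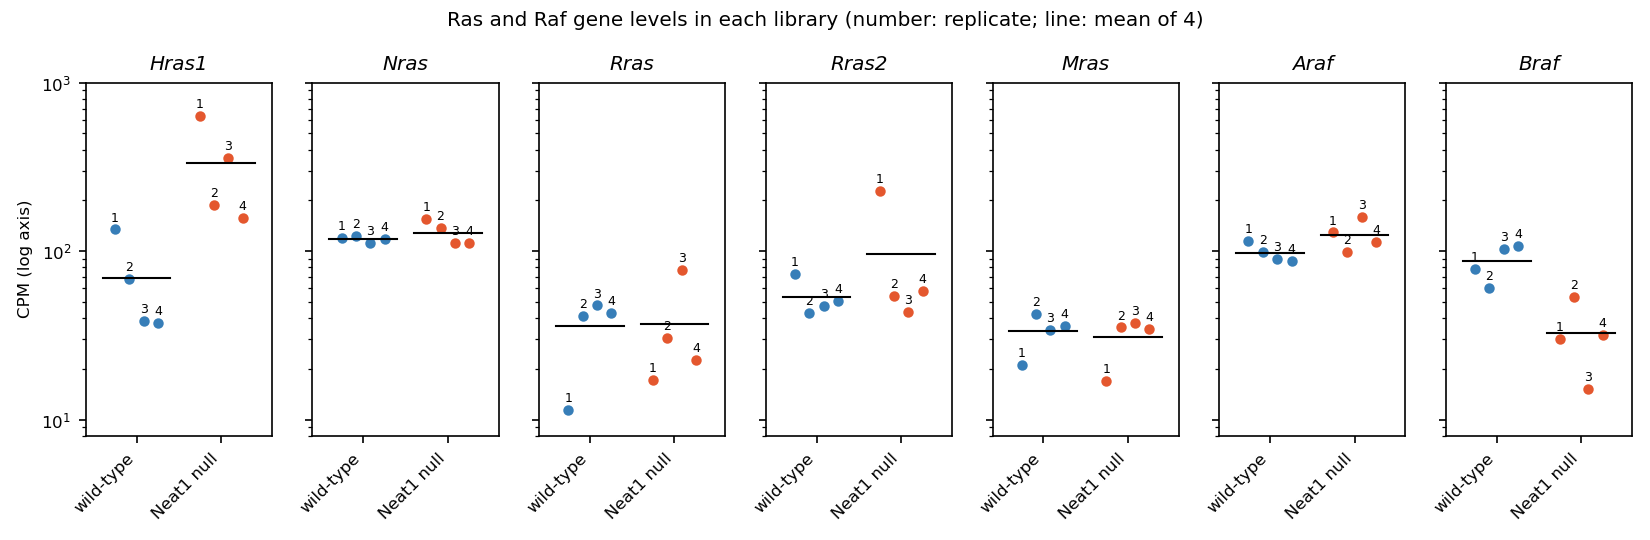
CPM (log axis) of each gene in each library, with the replicate number above each point and the mean of 4 libraries as a line. The Neat1 null points of Hras1 lie at 157 CPM and above and the wild-type points at 134 CPM and below. For Braf the order is turned, with 53.3 CPM as the highest Neat1 null point and 60.5 CPM as the lowest wild-type point.

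Hras1 (Hras, chromosome 7, 141189105 to 141194005, minus strand, GRCm38) is a protein-coding gene that shared no exon sequence with another gene of the annotation. Wild-type libraries 1 to 4 had 134, 68.0, 38.7 and 37.2 CPM of Hras1, and Neat1 null libraries 1 to 4 had 632, 187, 356 and 157 CPM. Every Neat1 null library was above every wild-type library, but wild-type library 1 lay closer to Neat1 null library 4 than to the other wild-type libraries. The wild-type mean was 69.6 ± 45.5 CPM and the Neat1 null mean 333 ± 218 CPM (SD, n = 4 each). This is a 4.79-fold rise, or 2.26 on the log2 scale, with an SE of 0.53 and an adjusted p of 0.0190 (edgeR). From the lowest to the highest library Hras1 varied 3.61-fold in the wild-type and 4.02-fold in the Neat1 null group. Its level thus differed widely inside each group, although such a range is not the same measure as the fold between group levels. The rise was called without either of wild-type libraries 1 and 2 and of Neat1 null libraries 1, 2 and 4. It missed the threshold without wild-type library 3 (log2 fold change 2.06, adjusted p = 0.0714), without wild-type library 4 (2.05, 0.0704) and without Neat1 null library 3 (2.23, 0.0650). In those fits edgeR called 0.135%, 0.082% and 0.095% of all genes. With Neat1 null libraries 1 and 3 both left out it was 1.31 (adjusted p = 0.162, edgeR), in a fit that called 0.0497% of all genes and 0 of the 7. The genes next to Hras among those tested, chosen by position after its values were seen, were Lrrc56, which starts 152 bases away (log2 fold change -0.62, adjusted p = 0.461), and the ribonuclease inhibitor gene Rnh1 (1.46, adjusted p = 0.0661).

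Nras (chromosome 3, 103058285 to 103067914, plus strand) encodes a Ras protein close to that of Hras. Its wild-type libraries had 119, 123, 111 and 118 CPM, and its Neat1 null libraries 155, 136, 112 and 112 CPM. The wild-type values lay within 1.10-fold of each other, and the Neat1 null values reached from inside that range to above it. The wild-type mean was 118 ± 4.66 CPM and the Neat1 null mean 129 ± 20.6 CPM (SD, n = 4 each). The log2 fold change of 0.13 (SE 0.31) did not pass the threshold (adjusted p = 0.786, edgeR), with a 95% interval from -0.53 to 0.79.

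None of the 3 genes of the R-Ras subfamily passed the test, and in each of them 1 library lay far from the rest of its group. Rras (chromosome 7, 45017961 to 45021647, plus strand), a GTPase known for its part in integrin-mediated adhesion, had 11.5, 41.4, 47.6 and 43.1 CPM in the wild-type group and 17.2, 30.3, 77.1 and 22.7 CPM in the Neat1 null group. Wild-type library 1 was the lowest of all 8 libraries and Neat1 null library 3 the highest. The difference on the log2 scale was 0.039 (SE 0.50, 95% interval -1.03 to 1.11, adjusted p = 0.960, edgeR). Rras2 (chromosome 7, 114046782 to 114117781, minus strand), also called TC21, which like the classical Ras proteins can transform cells when activated, had 72.7, 42.7, 47.5 and 50.7 CPM in the wild-type group and 227, 54.2, 43.2 and 57.8 CPM in the Neat1 null group. Neat1 null library 1 was far above the rest, and the other 3 Neat1 null libraries lay inside the wild-type range. For Rras2 the difference was 0.84 (SE 0.49, 95% interval -0.20 to 1.88, adjusted p = 0.224, edgeR) and -0.040 without Neat1 null library 1 (adjusted p = 0.938). Mras (chromosome 9, 99385420 to 99437381, minus strand), which with Shoc2 and a phosphatase helps to release Raf from its inhibited state, had 20.97, 42.4, 34.3 and 36.1 CPM in the wild-type group and 17.1, 35.2, 37.7 and 34.6 CPM in the Neat1 null group. Library 1 was the lowest of each group, and the other 6 libraries lay between 34.3 and 42.4 CPM. Its difference was -0.10 (SE 0.36, 95% interval -0.86 to 0.66, adjusted p = 0.856, edgeR).

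Of the Raf kinases, Braf fell and Araf did not pass the test. Braf (chromosome 6, 39603237 to 39725463, minus strand), the Raf kinase with the higher basal activity, had 78.6, 60.5, 103 and 107 CPM in the wild-type group and 30.0, 53.3, 15.3 and 31.8 CPM in the Neat1 null group. Every Neat1 null library was below every wild-type library, by a small margin between wild-type library 2 and Neat1 null library 2. The wild-type mean was 87.3 ± 21.8 CPM and the Neat1 null mean 32.6 ± 15.7 CPM (SD, n = 4 each). The fitted Neat1 null level was 0.374 of that in wild-type, or -1.42 on the log2 scale, with an SE of 0.40 and an adjusted p of 0.0273 (edgeR). Araf, an X-linked Raf gene (chromosome X, 20797814 to 20860519, plus strand), had 115, 98.9, 89.4 and 87.1 CPM in the wild-type group and 129, 99.2, 159 and 114 CPM in the Neat1 null group. The highest value was that of the female Neat1 null library 3, and the groups overlapped. The mean was 97.7 ± 12.9 and 125 ± 25.7 CPM, and the log2 fold change of 0.36 (SE 0.32) did not pass the threshold (adjusted p = 0.437, edgeR; 95% interval -0.32 to 1.04).

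The call of Braf was kept in 3 of 8 fits that left out 1 library, against 5 of 8 for Hras1. It ended when wild-type library 3 (log2 fold change -1.33, adjusted p = 0.0869) or 4 (-1.31, 0.0933) was left out, and when Neat1 null library 1 (-1.38, 0.0519), 3 (-1.17, 0.0668) or 4 (-1.40, 0.0502) was. The fits without Neat1 null library 1 or 4 called 12.1% and 15.9% of all genes. The 3 fits that kept both calls, which omitted wild-type library 1 or 2 or Neat1 null library 2, called 20.9%, 12.9% and 21.7%. With Neat1 null libraries 1 and 3 both left out Braf was at -1.04 (adjusted p = 0.157, edgeR). Sex and genotype overlap in this design, and in a fit with the sex of the library as a term the genotype effect comes from the female Neat1 null library 3 against the wild-type libraries. That arm is 1 library, with the lowest Braf level of all 8 (15.3 CPM) and the strongest dependence of counts on gene length. This library is assumed to vary like the others, so the fit is no repeat of the comparison. It gave -2.51 for Braf (adjusted p = 0.0179) and 2.35 for Hras1 (adjusted p = 0.0456, edgeR), and called 25.4% of all genes.

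**Figure D2:**
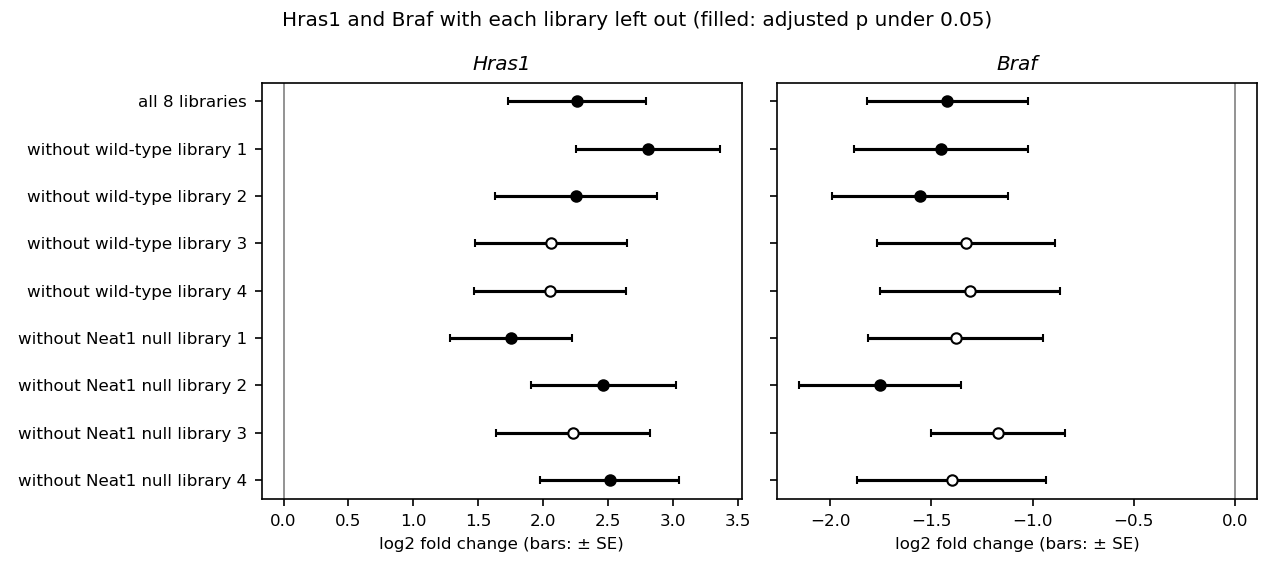
Log2 fold change of Hras1 and Braf (x axis, bars ± SE) with all 8 libraries and with each library left out in turn. Filled points pass an adjusted p of 0.05: 5 of 8 fits for Hras1 and 3 of 8 for Braf, with Hras1 between 1.75 and 2.81 and Braf between -1.75 and -1.17.

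Braf is the longest of the 7 genes, with 13862 bases of exon sequence against 1121 for Rras, 3554 for Rras2, 3733 for Hras1, 5134 for Mras, 5331 for Nras and 6541 for Araf. Libraries differed in how their counts depended on gene length. The slope of a gene's deviation from its mean log2 CPM on log2 exon length was 0.212, 0.136, 0.246 and 0.245 in wild-type libraries 1 to 4, and -0.314, 0.00698, -0.477 and -0.0534 in Neat1 null libraries 1 to 4. Among the Neat1 null libraries Braf was lowest in library 3, followed by libraries 1, 4 and 2, the same order as the slopes. Rras, with the shortest exon sequence, was highest in library 3 (77.1 CPM) but lowest in library 1 (17.2 CPM). Every wild-type slope was above every Neat1 null slope, so slope and genotype cannot be told apart. A correction for slope can therefore also remove a difference by genotype. The part of gene length in the fall of Braf was not tested. After a correction of every library for these slopes and for GC content, Braf was at -0.62 on the log2 scale (SE 0.23, adjusted p = 0.0891, edgeR) and was no longer called. Hras1 was then at 1.997 (SE 0.56, adjusted p = 0.0460) and stayed called. In this fit 1 of 7 genes was called, beside 11% of all genes. The correction also moved Rras, the shortest of the 7, from 0.039 to -0.98 (adjusted p = 0.162) and Araf from 0.36 to 0.83 (adjusted p = 0.0986). These corrected values rest on the exon lengths given above. The longest coding transcript is shorter, at 2854 bases for Araf and 9728 bases for Braf. Both Hras1 and Braf were called with RLE or upper-quartile factors, with no low-count filter, with genes kept from 1 CPM upward in 4 libraries, with DESeq2 and with a replicate block, beside 18.1%, 18.5%, 14.1%, 18.1%, 25.8% and 16.9% of all genes.

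**Figure D3:**
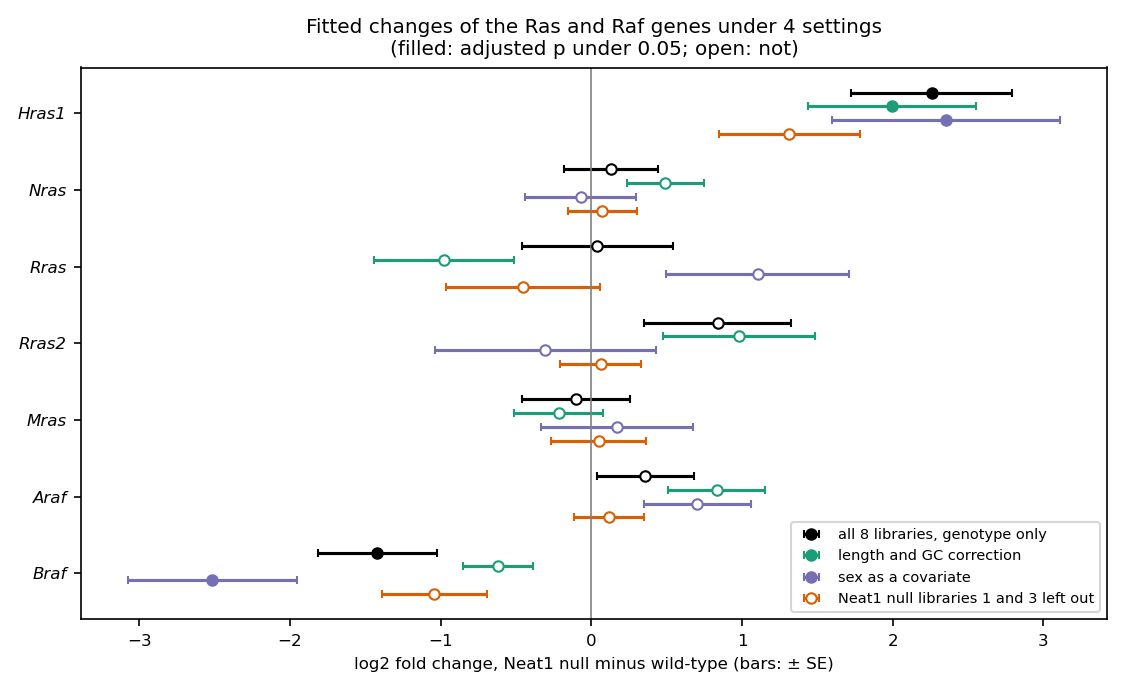
Log2 fold change, Neat1 null minus wild-type (x axis, bars ± SE), of the 7 genes under 4 settings, with filled points where the adjusted p was under 0.05. Hras1 lies between 1.31 and 2.35 in all 4 settings, Braf between -2.51 and -0.62, and Rras takes both signs.

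Ratios of counts between 2 genes of the same library do not depend on the scaling of libraries, and they are given as a description without a test. They are not free of the length slopes of the libraries, since in each pair the first gene has the shorter exon sequence. The part of the slopes in these ratios was not tested. The ratio of Araf to Braf was 1.47, 1.64, 0.865 and 0.817 in wild-type libraries 1 to 4 and 4.30, 1.86, 10.4 and 3.58 in Neat1 null libraries 1 to 4. Reads of Braf thus outnumbered those of Araf in wild-type libraries 3 and 4 alone, and the groups did not overlap. The ratio of Hras1 to Nras was 1.13, 0.555, 0.347 and 0.316 in wild-type and 4.09, 1.37, 3.17 and 1.40 in Neat1 null libraries. Hras1 counts exceeded Nras counts in wild-type library 1 and in all 4 Neat1 null libraries. The ratio of Rras to Rras2 was 0.157, 0.971, 1.00 and 0.849 in wild-type and 0.0758, 0.560, 1.78 and 0.392 in Neat1 null libraries, and library 1 was the lowest of each group.

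**Figure D4:**
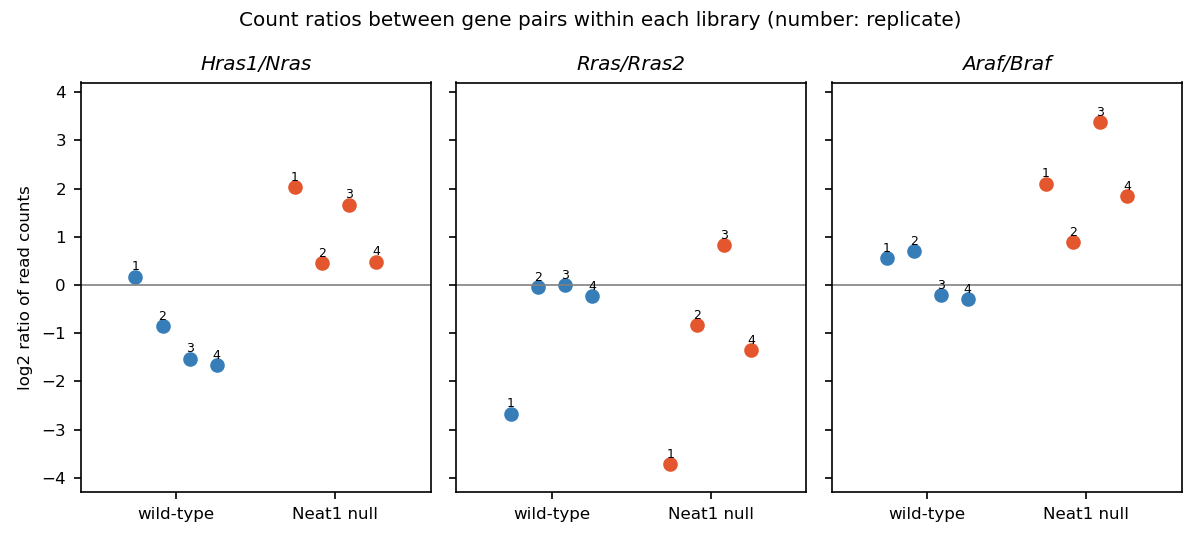
Log2 ratio of read counts between pairs of genes within each library (y axis), with the replicate number at each point. The genotypes do not overlap for Hras1 to Nras and for Araf to Braf, whereas Rras to Rras2 spans from -3.72 to 0.83 among the Neat1 null libraries and covers the wild-type range of -2.67 to 0.00283. In each pair the first gene is the shorter one, so the length slopes of the libraries can enter the ratios.

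Levels of different genes were compared per kilobase of exon sequence (RPKM). In the wild-type group the order of the means was Rras (32.0 ± 14.7 RPKM), Nras (22.1 ± 0.875), Hras1 (18.6 ± 12.2), Rras2 (15.0 ± 3.75), Araf (14.9 ± 1.97), Mras (6.51 ± 1.76) and Braf (6.30 ± 1.57). Araf and Mras were the only neighbours in this order whose libraries did not overlap. In Neat1 null libraries Hras1 came first (89.2 ± 58.3 RPKM), followed by Rras (32.9 ± 24.4), Rras2 (26.9 ± 24.8), Nras (24.2 ± 3.86), Araf (19.1 ± 3.93), Mras (6.06 ± 1.85) and Braf (2.35 ± 1.13), and again the only neighbours without overlap were Araf and Mras. The order depends on the length taken for a gene. Per kilobase of the longest coding transcript, which for Araf is 2854 bases, Araf was second in both groups (34.2 ± 4.51 and 43.9 ± 9.01 RPKM). Of the RPKM of the 5 Ras genes, Hras1 held 19.8 ± 13.1% in wild-type libraries and 46.6 ± 9.62% in the Neat1 null ones, and Nras held 23.4 ± 0.818% and 15.2 ± 5.70%. The Hras1 counts may hold reads of the introduced HRasV12, whose transcript length is not known. Ranks and shares that include Hras1 are therefore not levels of the cell's own Hras alone.

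The following correlations run over all 8 libraries, which differ in genotype, depth and length slope, so that each of these differences enters them. Pearson's r of log2 CPM, given as a description, was 0.846 between Hras1 and Araf, -0.835 between Hras1 and Braf and -0.905 between Araf and Braf. It was 0.802 between Nras and Rras2, 0.779 between Rras and Mras and -0.905 between Rras2 and Mras. Among 11288 other named genes, those most like Hras1 were Polr2d, a subunit of RNA polymerase II (r = 0.997), and Psmc3, an ATPase of the proteasome (r = 0.997). Those most like Braf were the collectin gene Colec12 (r = 0.995) and the kinase gene Nrk (r = 0.995). The nearest were Mboat2 and Ttc33 for Nras (r = 0.978 and 0.954), Fbxo36 and Pold4 for Rras (0.976 and 0.966), Cfdp1 and Denr for Rras2 (0.990 and 0.990 after rounding), Acadl and Ssbp2 for Mras (0.981 and 0.977), and Chpf and Fam73b for Araf (0.988 and 0.985).

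The sequences before the starts of the called genes are shown because they are where transcription of the cell's own Hras and Braf begins. Reads of the introduced HRasV12, which the Hras1 counts may hold, need not come from that start. RNA counts do not measure what binds there. The 250 bases upstream of the RefSeq start (GRCm38.p6, minus strand for both, written in the direction of transcription) lie at chr7:141194005-141194254 for Hras and at chr6:39725464-39725713 for Braf. Capitals mark matches on either strand to TGACGTCA (the cyclic AMP response element), GGGCGG (the GC box) and CCAAT (the CCAAT box).
Hras: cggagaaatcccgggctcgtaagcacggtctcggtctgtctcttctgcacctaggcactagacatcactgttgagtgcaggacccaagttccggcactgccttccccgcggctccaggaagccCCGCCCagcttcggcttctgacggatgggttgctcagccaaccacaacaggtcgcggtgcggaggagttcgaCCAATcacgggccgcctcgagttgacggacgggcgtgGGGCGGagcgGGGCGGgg
Braf: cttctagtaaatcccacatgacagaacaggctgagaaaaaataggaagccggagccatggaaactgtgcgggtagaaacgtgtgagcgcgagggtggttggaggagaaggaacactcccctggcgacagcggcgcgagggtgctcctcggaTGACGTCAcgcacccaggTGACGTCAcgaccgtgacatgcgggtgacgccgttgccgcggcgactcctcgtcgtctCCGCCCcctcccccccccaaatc
The Hras window held 3 GC boxes and 1 CCAAT box and no TGACGTCA. It also reached into the annotated span of Lrrc56, which begins 152 bases from Hras. The Braf window held 1 GC box, no CCAAT box and 2 matches to TGACGTCA, which begin 99 and 81 bases before the start. Of 32851 RefSeq windows of this length, 1.55% held TGACGTCA at least once and 10 held it 2 or more times. GGGCGG was found in 32.7% and CCAAT in 33.8% of them. The windows of the other 5 genes held no TGACGTCA.

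The other genes of the pathway were taken as 7 lists of 95 genes, of which 85 were tested. Of these, 6 rose and 10 fell in Neat1 null libraries, 18.8% beside 17.7% of all genes tested, a share near the background. The median log2 fold change was -0.14, beside -0.06 over all genes. The 6 that rose were lipid-processing genes (3), Raf regulators (2) and a MEK gene. The 10 that fell were spread over exchange factors and adaptors (2), GTPase-activating proteins (3), a Raf scaffold, other effectors (2) and ERK outputs (2).

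**Figure D5:**
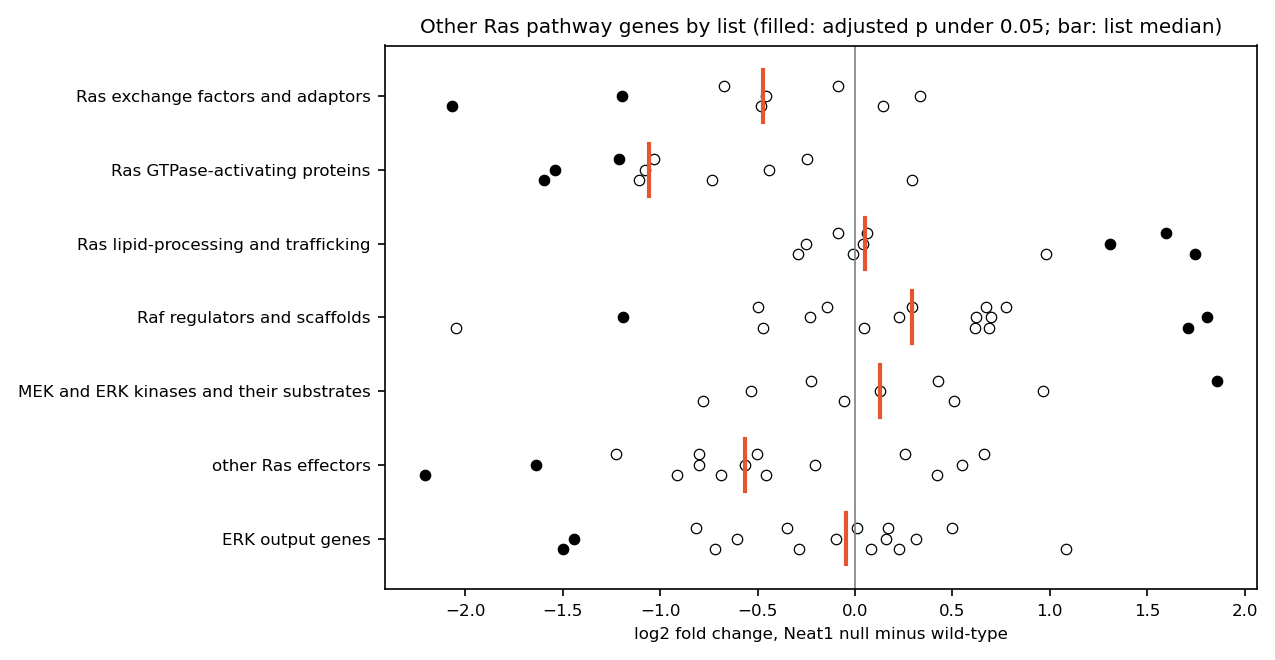
Log2 fold change, Neat1 null minus wild-type (x axis), of the 85 tested pathway genes in 7 lists. Filled points had an adjusted p under 0.05 and the bar is the list median, lowest for GTPase-activating proteins (-1.06) and highest for Raf regulators and scaffolds (0.29).

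Among exchange factors and adaptors 2 of 8 tested genes fell and 0 rose (median on the log2 scale -0.47), beside 7.72% and 9.97% of all genes. Sos1, an exchange factor that loads Ras with GTP, fell from 60.5 ± 6.74 to 26.4 ± 11.9 CPM (SD, n = 4 each; log2 fold change -1.20, SE 0.39, adjusted p = 0.0459, edgeR). Frs2, a docking protein of FGF receptors, fell from 150.04 ± 143 to 35.7 ± 16.5 CPM (log2 fold change -2.07, SE 0.57). Without wild-type library 1 Frs2 had -1.14 (adjusted p = 0.0746).

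Among GTPase-activating proteins and their partners 3 of 10 tested genes fell and 0 rose (median -1.06), beside 7.72% of all genes that fell and a median of -0.06 over all genes. Rasa1, the p120 RasGAP, fell from 104 ± 41.4 to 34.5 ± 21.7 CPM (log2 fold change -1.59, SE 0.47, adjusted p = 0.0340, edgeR). Rasal2 and Rasa4, further RasGAPs, had -1.21 (SE 0.37) and -1.54 (SE 0.48). The neurofibromin gene Nf1 had -1.08 (adjusted p = 0.0687) and did not pass, as did Spred1 and Spred2, which bring neurofibromin to the membrane (-1.11 and -1.03, adjusted p = 0.0632 and 0.0544). These 3 are named after their values were seen.

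Among the lipid-processing and trafficking genes 3 of 10 rose and 0 fell, with a median of 0.051, beside 9.97% of all genes that rose. Fnta, the alpha subunit of farnesyltransferase, rose from 61.0 ± 16.9 to 151 ± 23.6 CPM (log2 fold change 1.31, SE 0.34, adjusted p = 0.0225, edgeR). Rce1, the protease that trims prenylated Ras, had 1.598 (SE 0.46), and Lypla2, a thioesterase that removes palmitate, had 1.75 (SE 0.43).

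Among Raf regulators and scaffolds 2 of 17 rose and 1 fell, beside 9.97% and 7.72% of all genes, with a median of 0.29. Pebp1, the Raf kinase inhibitor protein, rose from 139 ± 36.4 to 487 ± 263 CPM (log2 fold change 1.81, SE 0.43, adjusted p = 0.0189, edgeR), and Cdc37, a kinase co-chaperone, from 314 ± 76.0 to 1025 ± 608 CPM (1.71, SE 0.47). Ksr1, a scaffold of Raf, MEK and ERK, fell from 19.0 ± 2.99 to 8.31 ± 2.60 CPM (-1.19, SE 0.37). Of 9 MEK and ERK kinases and substrates, beside the same shares of all genes, 1 rose and 0 fell. This was Map2k2, which encodes MEK2, from 113 ± 30.4 to 411 ± 308 CPM (1.86, SE 0.50), with 823 CPM in Neat1 null library 1 and 144 CPM in library 2, which lay inside the wild-type range. The other MEK gene, Map2k1, had -0.54 (adjusted p = 0.266), and Mapk3, which encodes an ERK kinase, had 0.43 (adjusted p = 0.488), both named after their values were seen.

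Among other Ras effectors 0 of 15 rose and 2 fell, beside 9.97% and 7.72% of all genes, with a median of -0.56. The 2 that fell were the phospholipase gene Plce1 (-2.21, SE 0.55) and Rassf5 (-1.64, SE 0.51), which encodes a Ras-binding adaptor. Of 16 ERK output genes 0 rose and 2 fell, beside the same shares of all genes, with a median of -0.04. The ETS factor Etv1 had -1.50 (SE 0.42) and the Sprouty-related Spred3 -1.44 (SE 0.41). The feedback phosphatase gene Dusp6 had -0.81 (adjusted p = 0.171) and Fosl1 0.32 (adjusted p = 0.649), neither past the threshold and both named after their values were seen.

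Calls of the pathway genes were lost in each of the 8 fits that left out 1 library, including 3 fits in which Hras1 and Braf kept theirs. When wild-type library 3 or 4 was left out, 0 of the 16 called genes passed (adjusted p = 0.0706 to 0.146 and 0.0684 to 0.179), nor did any when Neat1 null library 3 was (0.0646 to 0.0937). Of the 16, 10 were lost without Neat1 null library 1 (0.0548 to 0.0762), 6 without wild-type library 2 (0.0506 to 0.0837), 5 without Neat1 null library 4 (0.0535 to 0.0799), 4 without wild-type library 1 (0.0501 to 0.0746) and 3 without Neat1 null library 2 (0.0554 to 0.0716). After the length and GC correction Fnta, Cdc37, Ksr1, Rassf5 and Spred3 stayed called and the other 11 did not (adjusted p = 0.0511 to 0.290), and the list median of the GTPase-activating proteins was -0.55. With sex as a covariate 8 of the 16 lost the call (Frs2, Rasa4, Ksr1, Map2k2, Plce1, Rassf5, Etv1 and Spred3, adjusted p = 0.0508 to 0.286, edgeR). With the replicate block Rce1 and Rassf5 lost it (adjusted p = 0.0524 to 0.0608).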

How the data were processed

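RNA-seq of total RNA (TruSeq stranded kit, per the labels' protocols) was available for 8 libraries, 4 a group. The values deposited are unnormalized counts by gene symbol. The submitters' processing notes name CASAVA 1.8, STAR, DESeq2 and mm10. For the read counter, its strand setting and its annotation the entry is "not given in the sources used here". Rows outside genes (5.48% to 15.7% of counts) and ambiguous rows (1.09% to 1.76%) were left out. The labels do not say whether replicates are separate cultures. Neat1 null library 3 was female and Neat1 null libraries 1, 2 and 4 were male, so these do not all come from the same culture. The p-values reflect library-to-library spread, whose technical part is not known. Counts within a group differed by more than sampling noise (chi-square per degree of freedom at least 62.1).

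Genes passing filterByExpr (edgeR 4.0.16, R 4.3.3, minimum count 10) were scaled by TMM and tested with edgeR's quasi-likelihood test (robust, 2-sided, genotype only), with Benjamini-Hochberg adjustment over 13316 genes and a threshold of 0.05. SE is the log2 fold change divided by the square root of F, and 95% intervals use its t quantile. RPKM is CPM per kilobase of exon union in GENCODE M21 (GRCm38, that is mm10; 98.4% of symbols matched). The correction used splines (5 degrees of freedom) of length and GC content as offsets. The fit was tested on simulated data that held no length slopes and in which each gene was drawn independently. It recovered 2% of 2-fold, 58% of 4-fold and 98% of 8-fold and of 16-fold changes (50 genes each). Of its 134 calls there 4.48% were false. The fit of the data gave 2356 calls, so these shares need not hold for the data. Other alternatives were RLE and upper-quartile factors, other filters, DESeq2 1.42.0, a replicate block, sex, and libraries left out.

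The genes and lists were chosen with earlier results of these data known. Named were the 7 genes, up to 4 called genes with the smallest p per list, and the 2 genes with the highest Pearson correlation to each of the 7 (mean log2 CPM at least 1); others are said to be named after their values were seen. Some pathway items are not reported here.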

Additional observations from a re-analysis of the deposited data

Results flagged for a closer look

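In 3 of 20 groups of 4 libraries tested, 1 library lay far from the other 3 by Dixon's criterion. Normally distributed, independent values meet it in about 1 of 20 groups. The groups here share libraries, and some are ratios of the same counts, so no excess over chance can be read from the number flagged. Rras passed narrowly, at 0.831 against a critical value of 0.829. Rras was at 11.5 CPM in wild-type library 1, beside 41.4 to 47.6 CPM in the other wild-type libraries. Rras2 was at 227 CPM in Neat1 null library 1, beside 43.2 to 57.8 CPM in the others. Mras was at 17.1 CPM in Neat1 null library 1, beside 34.6 to 37.7 CPM. Neat1 null library 1 also had the lowest depth (19651035 counts), a length slope of -0.314 and a share of 5.23% for Rn45s, a ribosomal RNA gene, beside 0.138% to 0.939% in the other 7 libraries. The part of these measures in the 2 values of that library was not tested.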

How the results depend on the processing

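Hras1 and Braf kept their direction under all 17 alternatives, and Hras1 stayed called under 13 and Braf under 10 of them, the sex fit included, in which the Neat1 null arm is 1 library and the spread comes from the others. The cause of the changes was not tested. Leaving out 1 library gave 11 to 2965 called genes (2356 with all 8 libraries), 0 to 19 called pathway genes (16), log2 fold changes of 1.75 to 2.81 for Hras1 and -1.75 to -1.17 for Braf, and for genes never called -0.60 to 0.26 for Rras, -0.040 to 1.09 for Rras2 and -0.26 to 0.094 for Mras. The lowest counts, 18, 11 and 13 genes, came when wild-type library 3 or 4 or Neat1 null library 3 was absent.

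With Neat1 null libraries 1 and 3 both left out, 7 genes and 0 pathway genes were called (26 of 88 at an unadjusted p under 0.05), Hras1 had 1.31, Braf -1.04, Rras -0.45, Mras 0.049, and Neat1 -6.34 (adjusted p = 0.0899). The length and GC correction left 1460 genes (708 higher, 752 lower) and 7 pathway genes, with Braf at -0.62 and Rras at -0.98. With upper-quartile factors, which moved the median of all genes from -0.06 to -0.24, Nras had -0.061 and Rras -0.20, and 1036 genes were higher and 1428 lower against 1328 and 1028. With sex as a covariate Nras had -0.071, Rras2 -0.30 and Mras 0.17, and the median of all genes was -0.26.

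The labels do not say whether the replicate numbers pair the samples. Same-numbered libraries had correlations of deviations of 0.317, -0.258, -0.0140 and 0.108, and not every library was closest to its own number. Wild-type library 1 and Neat1 null library 1 were each closest to the other (0.317). The same held for wild-type library 2 with Neat1 null library 3 (0.365) and wild-type library 3 with Neat1 null library 2 (0.178). Such correlations cannot exclude a shared preparation. With the replicate block 2245 genes were called, 1093 higher and 1152 lower, Rras had -0.023, and both Hras1 (2.24) and Braf (-1.52) stayed called. DESeq2 called 3433 genes and gave Hras1 2.34 and Braf -1.38, both called. The lowest count of any of the 7 genes in a library was 190 (Mras). Whether depth or the spread between libraries limits the calls was not tested.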
